A study of Homo sapiens with 12 samples.

Results

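The genes described here are 40 genes of the lysosome, chosen by name: its cathepsins and other proteases, its glycosidases, sulfatases and lipid hydrolases, its membrane proteins, progranulin, and the transcription factors TFEB and TFE3. Each name matched 1 protein-coding row of a table of 58735 genes, 19951 of them protein-coding. Expression was measured by RNA sequencing in MSTO-211H, an established human mesothelioma line that was kept in suspension in medium with growth factors and that the submitters call mesothelioma-initiating. The 4 groups of 3 libraries were Con, given vehicle and sham exposure, IR, given vehicle and 4 Gy, Rx, read as 10 µM QTP with sham exposure, and Combo, read as 10 µM QTP with 4 Gy. QTP is a compound named only by those letters, in a study whose title speaks of dopamine receptor inhibition. It was given the day before irradiation, and RNA was taken 48 h after it. The reading of Rx and Combo follows from the 4 arms of the design text, since the titles give no doses. All libraries come from 1 cell line, and whether the 3 libraries of a group were separate cultures is not stated. A p-value here therefore reflects how far these libraries differ from each other, and that difference may be technical.

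Lysosomes are acidic organelles that break down protein, glycan, lipid and nucleic acid delivered by endocytosis and autophagy. Their hydrolases are made in the endoplasmic reticulum and sorted to the lysosome, many through mannose 6-phosphate tags, and heavily glycosylated membrane proteins line the compartment. TFEB and TFE3 are related transcription factors that are held in the cytoplasm by phosphorylation downstream of mTORC1. When they enter the nucleus they raise the transcription of many lysosomal genes through E-box elements in promoters. The question put to the data is how these genes stood after each treatment alone and after both together.

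Whole reads recovered from the deposited FPKM (fragments per kilobase of gene, scaled by the authors for library size) came to 13188257 to 18630958 per library. They ran from 13188257 to 16269195 in Con and from 17441486 to 18630958 in Combo. The mitochondrial share was 7.79 ± 1.29% for Con and 8.50 ± 1.90% for IR, beside 9.08 ± 0.622% for Rx and 8.70 ± 0.554% in the Combo libraries (SD, n = 3). Of 12 mesothelial markers 5 passed the filter of a mean of 1 FPKM over the 12 libraries, among them MSLN, CALB2 and the keratins KRT8 and KRT18, while KRT19 averaged 0.0502 FPKM and PDPN had 0 reads in every library. The summed level of these 12 genes ran from 1039 to 1310 FPKM for Con and 1039 to 1431 for IR. It ran from 949.6 to 1255 for Rx and 700.6 to 1043 for Combo. KRT8 and KRT18 were by far its largest parts, with means of 529.5 and 584.9 FPKM in Con and 372.5 and 423.7 in Combo. From Con to Combo the mean of CALB2 went from 25.3 to 14.5 and that of MSLN from 38.2 to 34.0. BNC1 went from 13.7 to 13.4 and WT1, below the filter, from 0.787 to 1.10. Depth and this sum differed between Con and Combo along with the lysosomal genes, and their part in the results was not tested. Macrophages and dendritic cells are rich in lysosomes, and none of their 9 markers passed the filter. AIF1, TYROBP, C1QA, C1QB and LYZ had 0 reads in every library, and the summed level of the 9 was 0.0694 to 0.151 FPKM for Con and 0.0940 to 0.146 for IR, beside 0.0302 to 0.147 for Rx and 0.0841 to 0.248 for Combo. None of the 3 endothelial and 3 lymphocyte markers passed, and 4 of 5 fibroblast genes did (LUM, COL1A1, COL3A1, PDGFRB), DCN averaging 0.0415 FPKM. In bulk RNA, fewer cells of a kind and less RNA per cell cannot be told apart. Library Con 1 stood apart from Con 2 and Con 3 for the lysosomal genes: 26 of the 38 measured members were highest in Con 1 among the Con libraries. Over all 38 members Con 1 was higher than Con 2 and Con 3 by a median of 0.11 on the log2 scale, where all genes had a median of -0.01. CTSA, TPP1, CTSB, PSAP and MANBA were more than 0.3 higher there. Without Con 1 the members' median change was 0.18 in IR, 0.13 in Rx and 0.20 in Combo against Con.

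**Figure D1:**
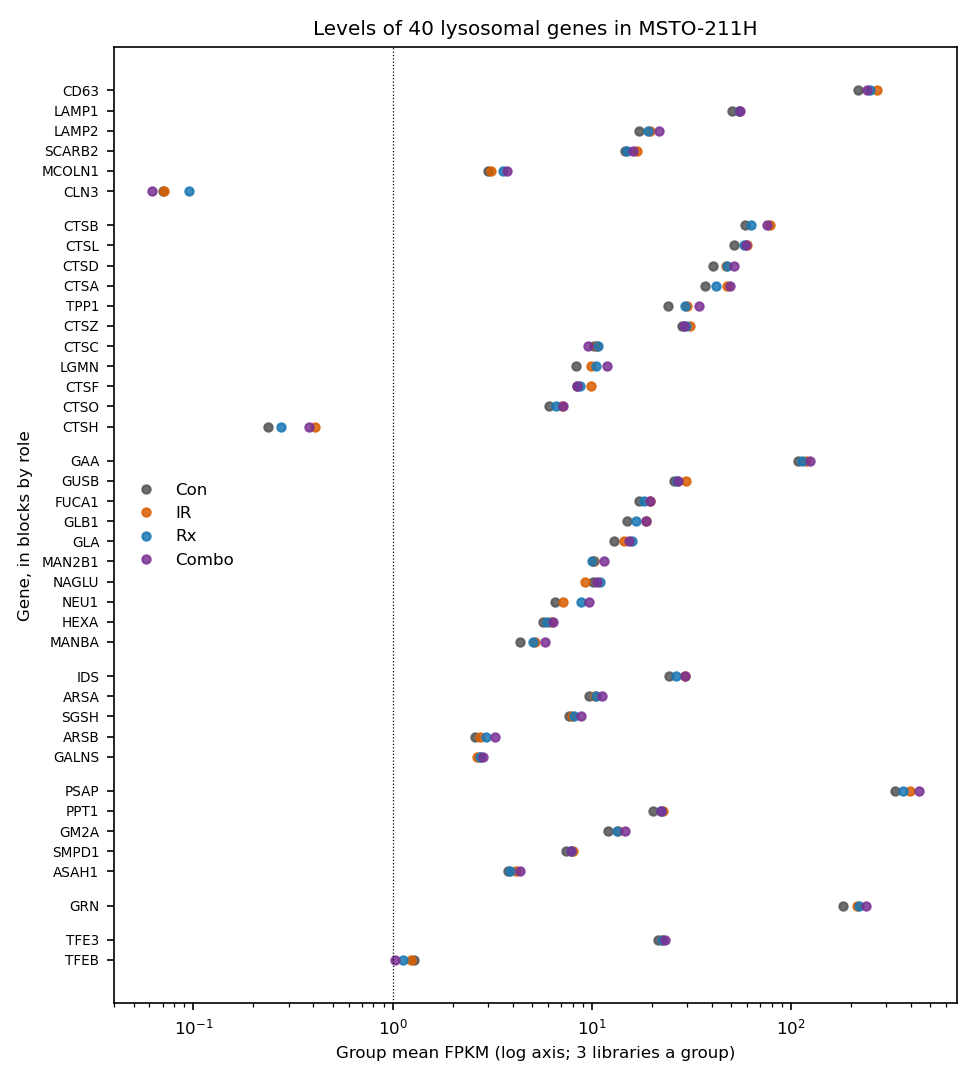
Mean FPKM of each of the 40 genes in the 4 groups (3 libraries each), on a log axis and in blocks by role; the dotted line is the filter at 1 FPKM. PSAP, CD63, GRN and GAA lie above 100 FPKM, and CTSH and CLN3 lie below 1.

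The members covered a wide range of levels. By mean FPKM, which is per length and can be compared between genes, 4 stood at 100 or more, 22 between 10 and 100, 12 between 1 and 10, and 2 below 1. PSAP, the precursor of the saposins that help enzymes reach sphingolipids, was highest at 382 FPKM. It was followed by the tetraspanin CD63 at 243, GRN, which encodes progranulin, at 213, and GAA, the acid glucosidase that breaks down glycogen, at 116. The most abundant protease genes were CTSB (69.0), CTSL (57.3), CTSD (46.9) and CTSA (43.9). TFE3 averaged 22.5 FPKM and TFEB 1.17, a ratio of 19.25, and TFEB lay just above the filter. The 38 members that passed rested on at least 88 reads in every library. CTSH averaged 0.324 FPKM (12 to 59 reads) and CLN3 0.0748 (7 to 22 reads), and these 2 entered no test. Of the 40 members, 22 overlap another gene of the table, 12 of them one on the same strand, and for CLN3 this is AC138894.1. Counting with or without strand is not given in the sources used here. In all, 9 members overlap a gene with a mean of at least 1 FPKM on either strand, including CTSA (PLTP, 33.2 FPKM), PPT1 (CAP1, 31.5) and MCOLN1 (PNPLA6, 18.3), so their reads may be shared in part. The gene lengths used for FPKM ran from 2038 to 19341 bases, the longest being that of SCARB2.

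The replicate spread was small for most members. The coefficient of variation over the 3 libraries of a group had a median of 7.85% for Con and 6.71% for IR, beside 7.46% for Rx and 5.98% for Combo, over 38 members. In Con it ran from 1.70% (LAMP1) to 43.0% (CTSA). In Combo it ran from 0.829% (SCARB2) to 13.8% (ARSB).

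**Figure D2:**
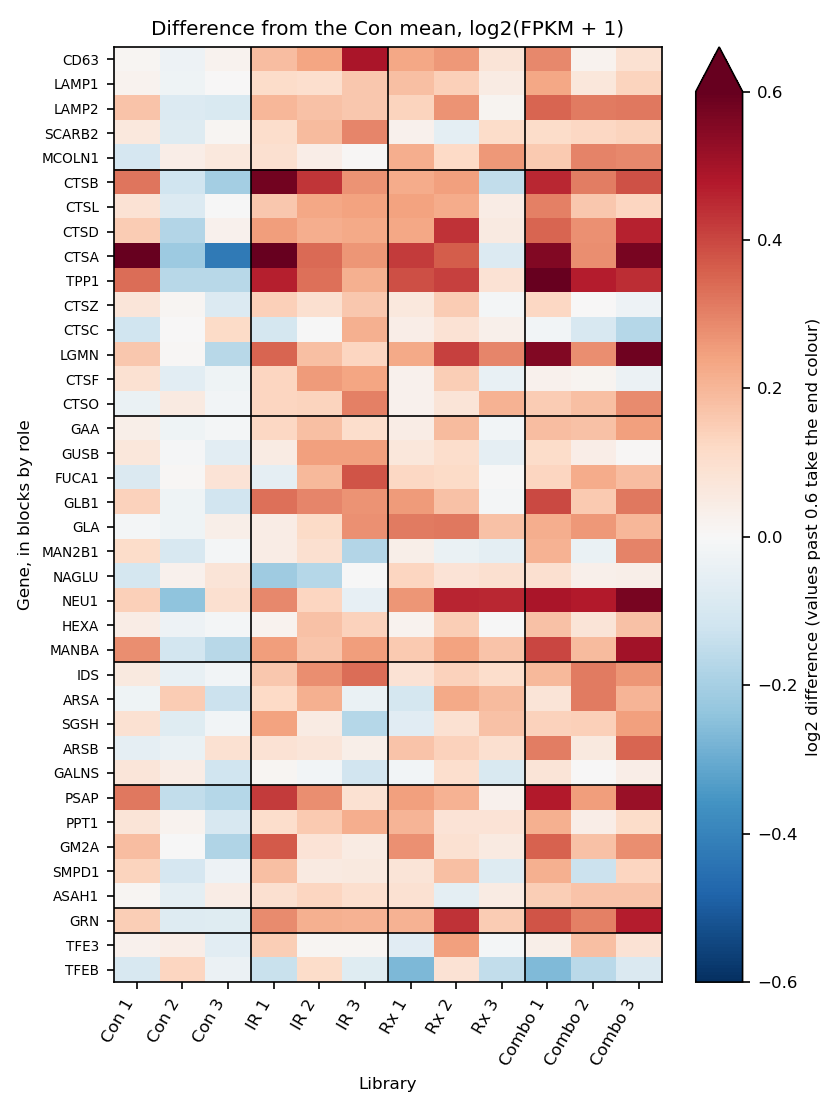
Difference of each library from the Con mean on the log2(FPKM + 1) scale, for the 38 members that passed the filter (rows, in blocks by role) in the 12 libraries (columns), red being higher. Most cells are red in the treated libraries, and Con 1 is redder than Con 2 and Con 3.

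Most members had a higher mean in each treated group than in Con, by small amounts, and none passed the test across all genes. In Combo 36 of 38 had a higher mean than in Con, with a median log2 change of 0.20, where 48.5% of all 13038 tested genes were higher and their median was -0.01. In IR 34 of 38 were higher (median 0.16; 52.6% of all genes, median 0.01), and in Rx 35 of 38 (median 0.11; 51.7% of all genes, median 0.00). With limma on log2(FPKM + 1), 0 members had an adjusted p under 0.05 in any comparison, against 0% of all genes in IR, Rx and Combo against Con, and 0.0920% with QTP averaged over both radiation arms. At an unadjusted p under 0.05, 13 members were higher and 0 lower in IR (3.69% and 3.17% of all genes), 7 and 0 in Rx (2.36% and 0.897%), and 20 and 0 in Combo (5.49% and 7.69%). Limma voom on the recovered reads also called 0 members in every comparison, with 19 at an unadjusted p under 0.05 in Combo against Con. For voom neither the share of all genes nor the split into higher and lower is given here. Its count therefore cannot be set against a background. All 3 comparisons share the Con libraries, so a low or high Con library enters each of them.

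Reads on the 40 genes were 0.691%, 0.585% and 0.571% of the library for Con 1 to 3. They were 0.737%, 0.692% and 0.657% for IR, 0.690%, 0.691% and 0.618% for Rx, and 0.760%, 0.705% and 0.784% for Combo. Combo lay above every Con library, and Rx and IR overlapped Con through Con 1. By group this made 0.616 ± 0.0655% for Con and 0.696 ± 0.0401% for IR, beside 0.666 ± 0.0421% for Rx and 0.750 ± 0.0404% in the Combo libraries (SD, n = 3). The Wilson 95% interval of a single library was at most 0.00889 percentage points wide, for counting error only, far less than the spread between libraries. The median member stood 0.17 to 0.22 above the Con mean in the Combo libraries, 0.14 to 0.17 in IR and 0.05 to 0.15 in Rx, against -0.03 to 0.07 in the Con libraries themselves. Rx 3 was the lowest of the treated libraries, with 24 of 38 members above the Con mean.

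**Figure D3:**
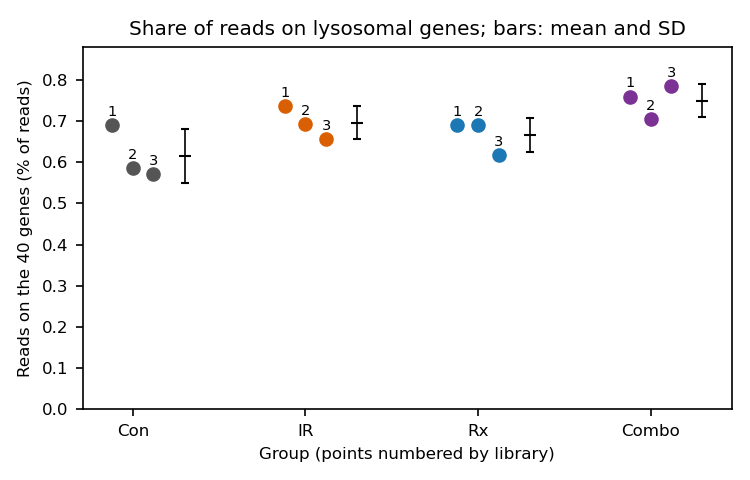
Percent of each library's reads that fall on the 40 genes, by group, with points numbered by library and bars for mean and SD (n = 3). The 3 Combo libraries lie between 0.705% and 0.784%, above all 3 Con libraries, of which Con 1 (0.691%) is the highest.

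Of the 38 members, 19 had all 3 Combo libraries above all 3 Con libraries and 0 had them all below, where 10.0% and 12.8% of all tested genes did. For IR the counts were 15 and 0 (5.56% and 4.98% of all genes), and for Rx 11 and 0 (4.60% and 3.18%). Without Con 1 the members higher and apart were 26 in Combo, 26 in IR and 21 in Rx, beside 19.93%, 12.89% and 10.86% of all genes. Without Con 2 they were 21, 15 and 12, beside 13.78%, 9.01% and 9.19% of all genes. Without Con 3 they were 22, 16 and 12, beside 15.14%, 9.46% and 9.26%. Members lower and apart were 2 in Combo and 1 in IR without Con 1 (23.84% and 10.46% of all genes). In IR 1 was lower and apart without Con 3 (8.64%). By highest mean at the deposited scaling, 22 members were highest in Combo, 12 in IR, 3 in Rx and 1 in Con, and 33 were lowest in Con. For this ranking no share of all genes is given here, so its counts have no background. A rescaling to TPM (dividing by the summed FPKM) shifted the median of all genes in IR against Con by -0.10 and in Rx against Con by -0.09. The members' medians then became 0.06 and 0.02, and the counts of higher members 27 and 23. All genes then had medians of -0.09 and -0.08, with 26.7% and 23.6% of them higher. Those shares belong beside each TPM count and each TPM sign given below for IR and Rx against Con. In Combo against Con the TPM median was 0.20.

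Among the proteases, all 10 measured genes had a higher mean in IR and in Rx than in Con, and 9 in Combo, with medians of 0.22, 0.14 and 0.28, and under TPM 9, 7 and 8 did. TPP1, the tripeptidyl peptidase whose loss causes a form of Batten disease (chromosome 11, 6612763 to 6619485, hg38), had 30.03, 20.9 and 20.95 FPKM in Con 1 to 3, 33.02, 29.96 and 27.6 in IR, 31.2, 31.8 and 25.2 in Rx, and 37.7, 33.2 and 32.4 in Combo. Combo lay above every Con library, while Con 1 was above IR 2, IR 3 and Rx 3. The log2 change was 0.52 (SE 0.14, adjusted p = 0.17) in Combo, 0.34 (SE 0.14) in IR and 0.29 (SE 0.14) in Rx, by limma. LGMN encodes legumain, a protease that cuts after asparagine and processes cathepsins (chromosome 14, 92703807 to 92748702). It had 9.38, 8.34 and 7.27 FPKM in Con 1 to 3, 10.9, 9.54 and 9.16 in IR, 9.86, 11.3 and 10.4 in Rx, and 12.6, 10.3 and 12.9 in Combo. Every Rx and Combo library lay above every Con library, while IR overlapped Con. Its changes were 0.47 (SE 0.11, adjusted p = 0.142) in Combo, 0.31 (SE 0.11) in Rx and 0.22 (SE 0.11) in IR.

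CTSB, the cysteine protease cathepsin B (chromosome 8, 11842524 to 11869448), had 72.7, 53.3 and 50.2 FPKM in Con 1 to 3, 87.03, 78.4 and 70.1 in IR, 67.7, 68.9 and 52.2 in Rx, and 79.7, 71.98 and 75.8 in Combo. Con 1 was above IR 3, Combo 2 and every Rx library, so each treated group overlapped Con, although its mean was higher. The change was 0.43 (SE 0.15, adjusted p = 0.68) in IR, 0.38 (SE 0.15) in Combo and 0.11 (SE 0.15) in Rx. CTSD, the aspartic protease cathepsin D (chromosome 11, 1752752 to 1764573), had 44.8, 35.4 and 40.8 FPKM in Con 1 to 3, 47.9, 46.9 and 47.2 in IR, 47.4, 54.5 and 41.7 in Rx, and 51.4, 48.8 and 55.6 in Combo. IR and Combo lay above all Con libraries, IR within 1.11% (coefficient of variation), and Rx overlapped Con. CTSD differed by 0.36 (SE 0.10, adjusted p = 0.193) in Combo, 0.23 (SE 0.10) in IR and 0.24 (SE 0.10) in Rx. CTSL, cathepsin L, an endopeptidase of the same family as cathepsin B (chromosome 9, 87725519 to 87731393), had 54.8, 48.7 and 51.4 FPKM in Con 1 to 3, 57.9, 60.8 and 61.1 in IR, 61.1, 60.4 and 53.2 in Rx, and 63.9, 57.8 and 56.5 in Combo. Its treated groups reached nearly the same level, with 0.21 (SE 0.08) in IR, 0.17 (SE 0.08) in Rx and 0.20 (SE 0.08) in Combo, and only Rx overlapped Con.

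CTSA, the carboxypeptidase that protects neuraminidase and beta-galactosidase in a complex (chromosome 20, 45890144 to 45898820), had 55.3, 29.97 and 25.9 FPKM in Con 1 to 3, 55.7, 44.7 and 42.3 in IR, 47.3, 45.5 and 33.1 in Rx, and 51.96, 42.8 and 52.5 in Combo. Con 1 was second only to IR 1, and the other two Con libraries were the lowest of all 12. With that spread the change in Combo was 0.47 (SE 0.24, adjusted p = 0.433). CTSZ, a carboxypeptidase (chromosome 20, 58995185 to 59007247), had 29.7, 28.4 and 26.6 FPKM in Con 1 to 3, 31.2, 30.2 and 31.6 in IR, 29.5, 31.4 and 27.9 in Rx, and 30.8, 28.2 and 27.6 in Combo. IR lay above Con and the other groups overlapped it, with differences of 0.13 in IR, 0.07 in Rx and 0.03 in Combo. CTSC, the dipeptidase that activates granule proteases (chromosome 11, 88293592 to 88337787), had 9.38, 10.3 and 11.2 FPKM in Con 1 to 3, 9.47, 10.3 and 12.1 in IR, 10.6, 10.98 and 10.5 in Rx, and 10.2, 9.53 and 9.01 in Combo. Every treated group overlapped Con, Combo lay below Rx, and CTSC was the protease with a lower mean in Combo than in Con, at -0.09 (SE 0.09). In IR and Rx it was at 0.03 and 0.05, both below 0 under TPM, as was CTSZ in Rx. CTSF and CTSO, further cysteine cathepsins, ranged from 8.03 to 10.3 and from 5.89 to 7.73 FPKM.

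**Figure D4:**
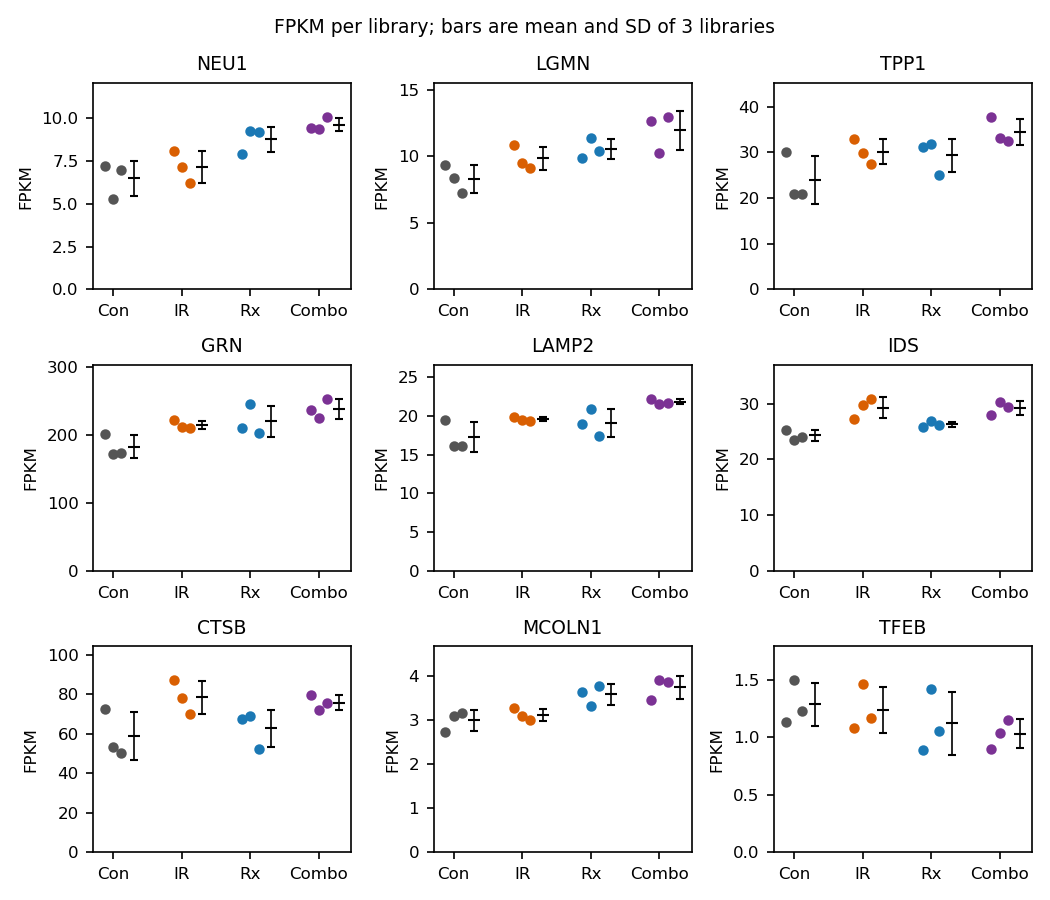
FPKM per library for 9 of the members, with the mean and SD of each group (n = 3) beside the points; each axis starts at 0. NEU1 and MCOLN1 have their higher means in the QTP groups (Rx and Combo) and IDS and CTSB in the irradiated groups (IR and Combo), LGMN, TPP1, GRN and LAMP2 have their highest mean in Combo, and TFEB is not higher in any treated group.

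All 10 glycosidase genes had a higher mean in Combo than in Con (median 0.19), 8 in IR (0.14) and 9 in Rx (0.09). Under TPM 5 were still higher in Rx, where 23.6% of all genes were. NEU1, the sialidase that trims sialic acid from glycoproteins (chromosome 6, 31857659 to 31862906), had 7.22, 5.31 and 6.96 FPKM in Con 1 to 3, 8.10, 7.13 and 6.20 in IR, 7.94, 9.23 and 9.18 in Rx, and 9.46, 9.37 and 10.1 in Combo. Every Rx and Combo library lay above every Con library, Combo with a coefficient of variation of 3.87%, and IR overlapped Con. By limma NEU1 had the smallest p of the members in Combo against Con, at 0.51 (SE 0.11, adjusted p = 0.134), or 1.43-fold in FPKM + 1. It also had the smallest p in Combo against IR, at 0.39 (SE 0.11, adjusted p = 0.174). The same held with QTP averaged over both radiation arms, at 0.39 (SE 0.08, adjusted p = 0.121). With radiation averaged over both QTP arms it differed by 0.12 (SE 0.08). Over the alternative settings the adjusted p of NEU1 ran from 0.0737 to 0.603 in Combo against Con and from 0.0579 to 0.488 with QTP averaged. In Combo against IR it ran from 0.0417, without IR 1, where limma called 956 of all genes, to 0.9994 without IR 3 and Combo 3.

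GLA, the galactosidase that removes terminal alpha-galactose from glycolipids (chromosome X, 101397803 to 101408012), had 12.8, 12.7 and 13.3 FPKM in Con 1 to 3, 13.4, 14.1 and 15.9 in IR, 16.3, 16.4 and 14.8 in Rx, and 15.2, 15.7 and 15.01 in Combo. All treated libraries lay above the Con libraries, IR 1 only just, and Rx 1 and Rx 2 were the highest. The changes were 0.27 (SE 0.07, adjusted p = 0.9998) in Rx, 0.23 (SE 0.07) in Combo and 0.14 (SE 0.07) in IR. GLB1, the acid beta-galactosidase known as the source of senescence-associated activity (chromosome 3, 32996608 to 33097230), had 16.6, 14.7 and 13.8 FPKM in Con 1 to 3, 19.1, 18.7 and 18.3 in IR, 18.1, 17.1 and 14.9 in Rx, and 20.1, 16.9 and 18.9 in Combo. IR and Combo lay above all Con libraries, Combo 2 by a small margin, and Rx overlapped them. GLB1 differed by 0.30 (SE 0.09, adjusted p = 0.68) in IR, 0.29 (SE 0.09) in Combo and 0.14 (SE 0.09) in Rx. GAA (chromosome 17, 80101556 to 80119879) had 111, 106 and 107 FPKM in Con 1 to 3, 117, 122 and 116 in IR, 111, 123 and 106 in Rx, and 122, 122 and 128 in Combo. IR and Combo were above every Con library, and Rx overlapped Con. GAA differed by 0.20 (SE 0.07) in Combo, 0.14 (SE 0.07) in IR and 0.07 (SE 0.07) in Rx, the last below 0 under TPM.

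HEXA, which acts in the clearance of GM2 ganglioside (chromosome 15, 72340919 to 72376476), had 5.89, 5.54 and 5.63 FPKM in Con 1 to 3, 5.77, 6.55 and 6.35 in IR, 5.78, 6.40 and 5.67 in Rx, and 6.56, 6.06 and 6.56 in Combo. Combo lay above Con, IR and Rx overlapped it, and the differences were 0.14 (SE 0.07) in Combo, 0.11 in IR and 0.05 in Rx, the last below 0 under TPM. MANBA, a beta-mannosidase, was at 4.34 ± 0.933 FPKM in Con and 5.84 ± 0.735 in Combo (SD, n = 3), a change of 0.37 (SE 0.11) with overlapping groups. NAGLU, which removes N-acetylglucosamine from heparan sulfate, was the member with the lowest value in IR, -0.13 (SE 0.07), against 0.10 (SE 0.07) in Rx. GUSB, a beta-glucuronidase, FUCA1, a fucosidase, and MAN2B1, an alpha-mannosidase, differed from Con by 0.05, 0.18 and 0.16 in Combo. GUSB has pseudogene copies in the table, GUSBP1 averaging 1.11 FPKM, so its value is uncertain to that extent.

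Among the membrane proteins, all 5 measured genes had a higher mean than Con in each treated group, with medians of 0.18 in IR, 0.14 in Rx and 0.14 in Combo, and under TPM 4, 4 and 5 did. LAMP2, a main coat protein of the lysosomal membrane and a receptor for chaperone-mediated autophagy (chromosome X, 120427827 to 120469365), had 19.5, 16.2 and 16.1 FPKM in Con 1 to 3, 19.9, 19.5 and 19.4 in IR, 19.00, 20.9 and 17.4 in Rx, and 22.2, 21.6 and 21.7 in Combo. The Combo libraries, with a coefficient of variation of 1.53%, were the 3 highest of all 12, and IR and Rx overlapped Con through Con 1. LAMP2 differed by 0.33 (SE 0.08, adjusted p = 0.152) in Combo, 0.18 (SE 0.08) in IR and 0.14 (SE 0.08) in Rx. Its partner LAMP1 (chromosome 13, 113297241 to 113323672) had 51.01, 49.3 and 50.4 FPKM in Con 1 to 3, 54.2, 54.00 and 56.3 in IR, 57.1, 55.5 and 51.9 in Rx, and 59.2, 52.7 and 55.1 in Combo. All treated libraries were above the Con libraries, by a narrow margin: 0.12 (SE 0.06) in IR, 0.12 (SE 0.06) in Rx and 0.14 (SE 0.06) in Combo.

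MCOLN1, the channel that releases calcium from lysosomes (chromosome 19, 7522626 to 7534009), had 2.72, 3.10 and 3.16 FPKM in Con 1 to 3, 3.27, 3.10 and 3.00 in IR, 3.64, 3.33 and 3.77 in Rx, and 3.45, 3.90 and 3.87 in Combo. Rx and Combo lay above every Con library, and IR stayed within the range of Con apart from IR 1. The changes were 0.25 (SE 0.08, adjusted p = 0.212) in Combo, 0.20 (SE 0.08) in Rx and 0.05 (SE 0.08) in IR, the last below 0 under TPM. SCARB2, the lysosomal membrane protein LIMP-2 (chromosome 4, 76158733 to 76234536), had 15.4, 13.8 and 14.8 FPKM in Con 1 to 3, 15.8, 16.8 and 18.1 in IR, 14.9, 14.00 and 15.9 in Rx, and 15.9, 16.02 and 16.2 in Combo. It was above Con in every IR and Combo library, and Rx overlapped Con, with changes of 0.19 (SE 0.07), 0.12 (SE 0.07) and 0.02 (SE 0.07) in IR, Combo and Rx, the last below 0 under TPM. CD63, a tetraspanin of late endosomes and exosomes (chromosome 12, 55725323 to 55729707), had 218, 212 and 220.4 FPKM in Con 1 to 3, 247, 256 and 305 in IR, 255, 260.1 and 229 in Rx, and 265, 220.3 and 231 in Combo. IR 3, the library with the highest mitochondrial share (10.5%), was the highest of the 12, and Combo overlapped Con. CD63 differed by 0.30 (SE 0.10) in IR, 0.19 (SE 0.10) in Rx and 0.13 (SE 0.10) in Combo.

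The 5 sulfatase genes all had a higher mean in Combo than in Con (median 0.20), 4 of them in IR (0.07) and 4 in Rx (0.10), against 1 and 3 under TPM. IDS, the iduronate sulfatase that starts the breakdown of heparan and dermatan sulfate (chromosome X, 149476990 to 149521096), had 25.4, 23.5 and 24.01 FPKM in Con 1 to 3, 27.2, 29.7 and 30.9 in IR, 25.8, 26.8 and 26.2 in Rx, and 27.98, 30.4 and 29.4 in Combo. All treated libraries lay above the Con libraries, and the Rx libraries lay below all IR and Combo libraries. IDS had the smallest p of the members in IR against Con, at 0.26 (SE 0.06, adjusted p = 0.656), and with radiation averaged, at 0.20 (SE 0.04, adjusted p = 0.349), and differed by 0.26 (SE 0.06) in Combo and 0.11 (SE 0.06) in Rx. ARSB, which removes sulfate from dermatan sulfate, was at 2.59 ± 0.203 FPKM in Con, 2.94 ± 0.103 in Rx and 3.25 ± 0.448 in Combo (SD, n = 3). ARSA, SGSH and GALNS, which act on sulfatide, heparan sulfate and keratan sulfate, differed by 0.20, 0.18 and 0.04 in Combo.

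The lipid hydrolases and their activators had a higher mean than Con in every treated group for all 5 genes, with medians of 0.16 in IR, 0.12 in Rx and 0.16 in Combo, and under TPM 4, 3 and 5 did. PSAP (chromosome 10, 71816298 to 71851375) had 406, 295 and 290.1 FPKM in Con 1 to 3, 436, 396 and 347 in IR, 388, 378 and 332 in Rx, and 454, 389 and 467 in Combo. Con 1 lay among the treated libraries, and the change in Combo was 0.41 (SE 0.14, adjusted p = 0.272). GM2A, the activator protein for GM2 ganglioside, was at 12.01 ± 1.65 FPKM in Con and 14.6 ± 0.965 in Combo (SD, n = 3), a change of 0.27 (SE 0.11). ASAH1, the acid ceramidase (chromosome 8, 18055992 to 18084998), had 3.84, 3.60 and 3.95 FPKM in Con 1 to 3, 4.12, 4.23 and 4.14 in IR, 4.10, 3.60 and 3.95 in Rx, and 4.31, 4.39 and 4.40 in Combo. The Combo libraries were the 3 highest, IR was also above Con, and Rx overlapped Con. ASAH1 differed by 0.16 (SE 0.06) in Combo, 0.11 (SE 0.06) in IR and 0.03 (SE 0.06) in Rx, the last below 0 under TPM.

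PPT1, which removes palmitate from proteins (chromosome 1, 40071461 to 40097727), had 21.4, 20.6 and 18.9 FPKM in Con 1 to 3, 21.9, 22.7 and 23.7 in IR, 23.5, 21.5 and 21.6 in Rx, and 23.6, 20.9 and 21.98 in Combo. IR and Rx lay above Con and Combo overlapped it, with differences of 0.16 (SE 0.07) in IR, 0.12 (SE 0.07) in Rx and 0.12 (SE 0.07) in Combo. SMPD1, the acid sphingomyelinase that cationic amphiphilic drugs are known to inhibit at the protein level (chromosome 11, 6390431 to 6394998), had 8.24, 6.85 and 7.26 FPKM in Con 1 to 3, 8.55, 7.74 and 7.78 in IR, 7.90, 8.56 and 6.99 in Rx, and 8.77, 6.70 and 8.22 in Combo. All groups overlapped, and SMPD1 differed by 0.10 (SE 0.10) in IR, 0.06 (SE 0.10) in Rx and 0.07 (SE 0.10) in Combo, the values in IR and Rx being below 0 under TPM.

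GRN, the precursor of the granulins, whose product supports lysosomal enzymes (chromosome 17, 44345086 to 44353102), had 202, 172 and 173 FPKM in Con 1 to 3, 221, 211 and 210.3 in IR, 210.5, 246 and 202 in Rx, and 236, 224 and 253 in Combo. All treated libraries lay above the Con libraries, Rx 3 by the smallest margin. GRN differed by 0.38 (SE 0.09, adjusted p = 0.149) in Combo, 0.27 (SE 0.09) in Rx and 0.24 (SE 0.09) in IR.

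For both transcription factor genes every treated group overlapped Con. TFEB (chromosome 6, 41683978 to 41736259) had 1.13, 1.49 and 1.23 FPKM in Con 1 to 3, 1.08, 1.46 and 1.17 in IR, 0.888, 1.42 and 1.05 in Rx, and 0.896, 1.04 and 1.15 in Combo. The treated means were the lower ones, at -0.03 (SE 0.13) in IR, -0.11 (SE 0.13) in Rx and -0.17 (SE 0.13) in Combo. TFE3 (chromosome X, 49028726 to 49043486) had 21.96, 22.2 and 20.6 FPKM in Con 1 to 3, 24.02, 21.7 and 21.7 in IR, 20.6, 25.8 and 21.4 in Rx, and 22.1, 24.6 and 22.9 in Combo. It differed by 0.06 (SE 0.09) in IR, 0.06 (SE 0.09) in Rx and 0.10 (SE 0.09) in Combo, and its IR and Rx values were below 0 under TPM. These are RNA levels, and where the proteins were in the cell was not measured here.

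Averaging each treatment over both arms of the other gives each member a value for QTP and a value for radiation. With QTP averaged, 32 of 38 members were higher (median 0.07; 48.1% of all genes, median 0.00), and 10 were higher and 0 lower at an unadjusted p under 0.05 (5.21% and 6.17% of all genes). With radiation averaged, 35 of 38 were higher (median 0.12; 48.5% of all genes, median 0.00), and 15 were higher and 0 lower at that p (3.34% and 5.17% of all genes). By limma 0 members passed after adjustment in either, the lowest adjusted p being 0.121 (NEU1) with QTP and 0.349 (IDS) with radiation. The members with the smallest p for QTP were NEU1, MCOLN1 at 0.20 (SE 0.05), LGMN at 0.28 (SE 0.08), GLA at 0.18 (SE 0.05) and GRN at 0.21 (SE 0.07). For radiation they were IDS, GLB1 at 0.22 (SE 0.06), CTSB at 0.35 (SE 0.10), LAMP2 at 0.18 (SE 0.06) and SCARB2 at 0.15 (SE 0.05). CTSB, at 0.03 (SE 0.10) with QTP averaged, and SCARB2, at -0.02 (SE 0.05), had QTP values smaller than their standard errors.

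**Figure D5:**
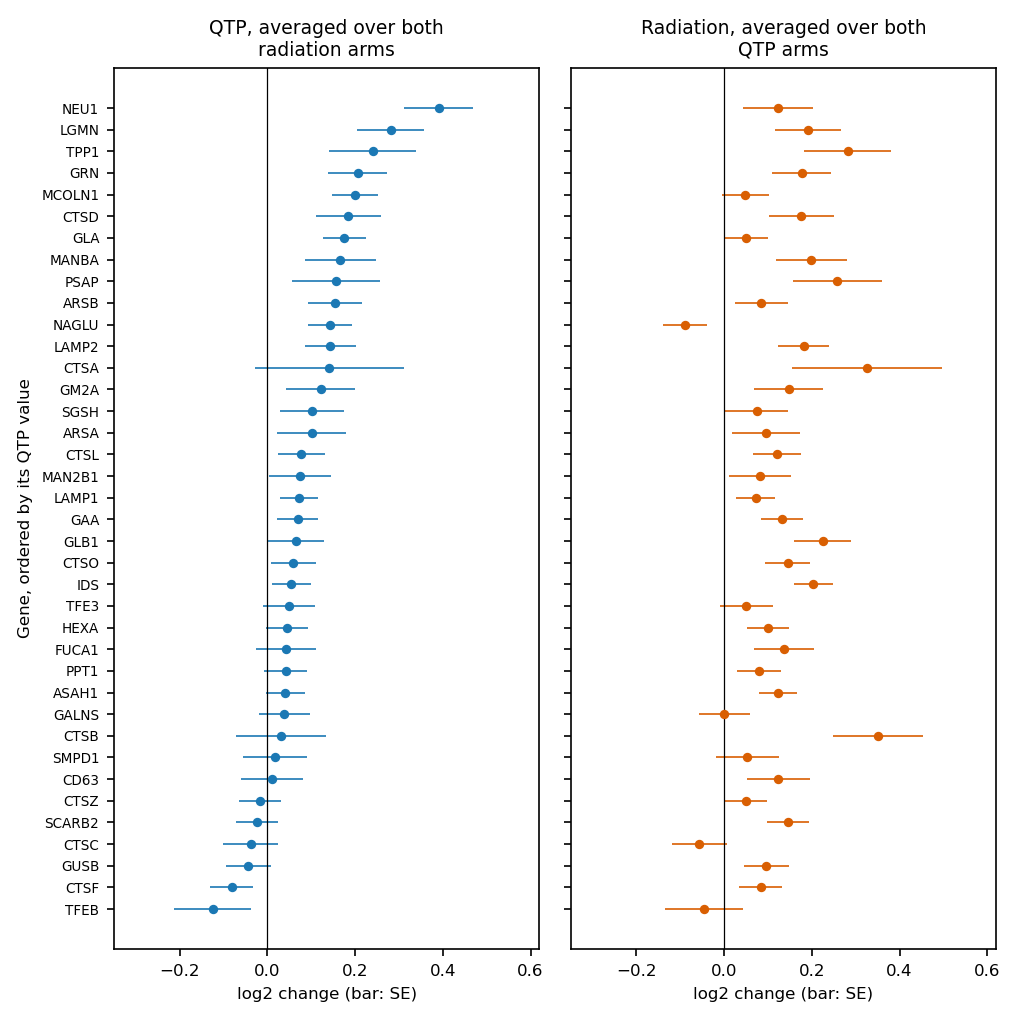
Log2 change of the 38 measured members with QTP averaged over both radiation arms (left) and with radiation averaged over both QTP arms (right), in one order; bars are standard errors. NEU1 has the highest QTP value (0.39), and CTSB has the highest radiation value (0.35) with a QTP value near 0.

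QTP alone was also set against radiation alone, in a comparison added after the values had been seen. Rx against IR called 0 members and 0% of all genes by limma (lowest adjusted p among members 0.540, NAGLU), with 13 of 38 members higher in Rx (49.1% of all genes). At an unadjusted p under 0.05, NAGLU at 0.23 (SE 0.07) and NEU1 at 0.27 (SE 0.11) were higher in Rx, and SCARB2 at -0.17 (SE 0.07), CTSF at -0.17 (SE 0.07), IDS at -0.15 (SE 0.06) and CTSB at -0.32 (SE 0.15) lower. These shares compare with 3.45% higher and 3.05% lower of all genes. NAGLU, MCOLN1 and ARSB had every Rx library above every IR library (4.99% of all genes), and CTSB, IDS, GLB1 and ASAH1 every Rx library below (4.44%). Voom called 0 members here too, with 4 at an unadjusted p under 0.05, again without a share of all genes to set it against. The leaning of single members toward either treatment is a description of these libraries that did not pass the test.

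Adding QTP to radiation (Combo against IR) left 25 of 38 members with a higher mean (median 0.05; 47.4% of all genes, median -0.01), with 4 higher and 1 lower at an unadjusted p under 0.05 (5.91% and 11.6% of all genes). Of the members, 7 had every Combo library above every IR library and 1 below (8.53% and 11.6% of all genes). Adding radiation to QTP (Combo against Rx) left 30 higher (median 0.10; 46.0% of all genes, median -0.01), with 3 higher and 0 lower (2.81% and 6.30%), and 9 with every Combo library above Rx and 1 below (8.26% and 12.7%). Under TPM, which shifted all genes by 0.10 and 0.08 in these comparisons, 33 members were higher than in IR, as were 66% of all genes (medians 0.16 and 0.09). In that scaling 36 members were higher than in Rx, as were 65.4% of all genes (medians 0.19 and 0.07). Both called 0 members by limma and by voom. For the interaction, which asks whether the combined change differs from the sum of both single changes, 8 of 38 members had a positive value (44.9% of all genes) and 30 a negative one, with a median of -0.08 (all genes -0.03). At an unadjusted p under 0.05, 0 were positive and 2 negative (2.32% and 5.31% of all genes). All 10 protease genes were on the negative side, of which 8 were positive under TPM, where 76% of all genes were. Among all members the smallest p by limma were those of CD63, at -0.36 (SE 0.14, adjusted p = 0.609), and CTSF, at -0.25 (SE 0.10, adjusted p = 0.609). The sign of the list changed with the library scaling: under TPM, which shifted all genes by 0.18, the members' median was 0.11 with 34 of 38 positive. All genes then had a median of 0.16, with 76% of them positive. The members' median was below that of all genes under both scalings, while their share of positive values under TPM was above that of all genes. Limma called 0 members and 0% of all genes.

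Other genes of the lysosome were taken from lists that held none of the 40. Of 30 further hydrolases and activators that passed the filter (35 listed), 27 had a higher mean in IR, 26 in Rx and 24 in Combo than in Con, with medians of 0.11, 0.11 and 0.11, where 52.6%, 51.7% and 48.5% of all genes were higher. Under TPM 15, 20 and 24 of them were higher, with medians of 0.00, 0.03 and 0.12, where 26.7%, 23.6% and 47.6% of all genes were. MAN2B2, a mannosidase, differed by 0.32 (SE 0.08) in Combo. Of 21 further membrane proteins and transporters (29 listed) 12, 14 and 13 were higher, with medians of 0.04, 0.06 and 0.04, and under TPM 7, 9 and 13, with medians of -0.06, -0.03 and 0.05. OSTM1, the subunit of the lysosomal chloride transporter CLCN7, had the smallest p of these lists in Combo (0.43, SE 0.07, adjusted p = 0.122) and with QTP averaged (0.29, SE 0.05, adjusted p = 0.0741). MAN2B2 and OSTM1 were named after their values had been seen. Of 23 genes that sort hydrolases to lysosomes 11, 18 and 14 were higher (medians -0.01, 0.04 and 0.05), and of 22 genes of the nutrient control of TFEB and TFE3 (24 listed) 16, 15 and 10 (0.08, 0.03 and -0.01). The list of lysosomal damage sensors and cathepsin inhibitors had 7 measured genes of 12, and 4, 6 and 2 were higher (0.16, 0.05 and -0.02). Under TPM the counts were 5, 6 and 14 for sorting (medians -0.12, -0.03 and 0.05), 9, 8 and 10 for nutrient control (-0.02, -0.04 and -0.02) and 4, 1 and 2 for damage sensors and inhibitors (0.05, -0.03 and -0.03). By limma 0 genes of these 5 lists passed in any comparison.

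Promoter sequences are shown because TFEB and TFE3 bind E-box elements. They were picked after the matches had been seen, mostly for holding one, so they do not stand for the 29 windows. RefSeq promoter windows (GRCh38.p14, 250 bases before to 50 after the gene start) were found for 29 of the 40 members. The E-box core CACGTG, which reads the same on both strands, was in 10 of these 29 windows (34.5%), against 7.26% of all 35116 windows and 10.4% of the 8631 windows of tested protein-coding genes. The longer TCACGTGA, which contains the core, was in 6 (20.7%, against 0.98% and 2.1%): CLN3, CTSA, GAA, GALNS, LAMP1 and MCOLN1. The CLEAR element, a 10-base form around the same core, was in 3 of those 6 (GAA, GALNS and MCOLN1; 10.3%, against 0.353% and 0.823%). The related TCATGTGA, or TCACATGA on the other strand, was searched after the TPP1 window had been seen. It was in 4 (13.8%, against 1% and 0.881%): CD63, GRN, PPT1 and TPP1. A match is a string of letters, and no match says only that it is not in this window.

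The bases that lie before the start of the gene in the deposited table are shown for 4 members, and short windows for TPP1 and GRN, 5′ to 3′ on the gene's strand, with matches to these motifs in capitals. They are NEU1 (chr6:31862907-31863071, minus strand), MCOLN1 (chr19:7522374-7522623, plus), LAMP1 (chr13:113296989-113297238, plus), GLA (chrX:101408013-101408175, minus), TPP1 (chr11:6619423-6619448, minus) and GRN (chr17:44345068-44345097, plus), in GRCh38.
NEU1: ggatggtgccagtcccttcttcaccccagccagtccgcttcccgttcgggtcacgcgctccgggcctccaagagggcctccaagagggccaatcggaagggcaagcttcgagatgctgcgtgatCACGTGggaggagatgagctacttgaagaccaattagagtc
MCOLN1: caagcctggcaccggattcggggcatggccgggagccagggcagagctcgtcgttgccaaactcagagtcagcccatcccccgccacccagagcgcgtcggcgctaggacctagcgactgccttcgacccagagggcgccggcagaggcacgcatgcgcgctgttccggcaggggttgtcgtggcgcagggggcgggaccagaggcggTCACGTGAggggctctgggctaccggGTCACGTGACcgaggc
LAMP1: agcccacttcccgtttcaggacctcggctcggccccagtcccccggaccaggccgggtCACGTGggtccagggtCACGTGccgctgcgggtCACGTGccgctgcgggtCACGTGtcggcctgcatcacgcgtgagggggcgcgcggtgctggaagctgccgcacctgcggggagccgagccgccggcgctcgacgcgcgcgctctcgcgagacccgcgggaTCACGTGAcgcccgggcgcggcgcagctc
GLA: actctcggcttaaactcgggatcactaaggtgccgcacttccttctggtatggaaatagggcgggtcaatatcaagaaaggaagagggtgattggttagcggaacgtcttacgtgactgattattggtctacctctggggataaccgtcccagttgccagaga
TPP1: agagcTCATGTGAtccgTCACATGAc
GRN: ctgtcccgacgTCACATGAttctccaatca
LAMP1 holds 5 matches in the bases shown, MCOLN1 and TPP1 hold 2 each, NEU1 and GRN hold 1, and GLA, shown as an example with none, holds 0. The windows of IDS, GLB1 and SCARB2, members with some of the smallest p for radiation, also hold none and are not shown. All of these lie within the gene's bounds in the table. The IDS window is at chrX:149505257-149505556, where the table has this minus-strand gene start at 149521096. That of SCARB2 is at chr4:76213775-76214074, with the start at 76234536. The bases before those starts were not searched. The stretch of GLA overlaps the gene RPL36A-HNRNPH2, that of TPP1 lies within the gene's bounds in the table, and that of GRN spans the gene's start. In Combo against Con the 9 measured members with CACGTG had a median log2 change of 0.20 and the 18 without it 0.17. In Rx against Con the medians were 0.19 and 0.09, and in IR against Con 0.14 and 0.16. GLA, with no match, differed by 0.27 in Rx, and GAA, with the CLEAR element, by 0.07.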

How the data were processed

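RNA from 12 libraries of MSTO-211H (4 groups of 3) was sequenced after NEBNext Ultra library preparation, per the labels' protocols, and mapped to hg38 as far as the submitters' processing notes name a build. Which aligner and counter were used, and whether counting used strand, is not given in the sources used here. Deposited values are FPKM per gene, which the authors had already scaled by library. FPKM times gene length came out in whole steps for 100% of values (tolerance 0.01), which gave the reads per gene and 13188257 to 18630958 reads per library. Intervals on read shares are Wilson 95% intervals and cover counting error only.

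The test was limma (version 3.58.1, R version 4.3.3) on log2(FPKM + 1), for the 13038 of 58735 genes whose mean FPKM reached 1. It used a variance trend, group means fitted to all 12 libraries, two-sided tests and Benjamini-Hochberg adjustment over all tested genes at 0.05. A log2 change is on that scale and understates the change of low genes. As the unit is no count, limma voom on the recovered reads was an alternative only. The other alternatives were a pseudocount of 0.1, no filter or 5 FPKM, TPM, median-of-ratios scaling, protein-coding genes, fits of the compared groups alone, a replicate block, and leaving out libraries. The fit was tested on simulated data with known changes. Those were larger than the change of any measured member, so that check does not cover changes as small as these.

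The 40 members, the other lists and the named genes were chosen with earlier results of these data known, so no test over a list was made. Values per library are given for 26 members: a fixed set, which held the 5 with the smallest p in Combo against Con and in each averaged comparison. The rest are given by means, ranges or changes. Rx against IR, the counts of members with a higher mean, the counts of separated groups without a library and the TPM values of the other lists were added after the data had been seen. Some single genes of the other lists are not reported here.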

Additional observations from a re-analysis of the deposited data

How the results depend on the processing

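No member passed the test in any comparison under most settings, and the exceptions were single genes. In a fit with a replicate block, limma called 1 member in Combo against Con, TPP1 (0.52, SE 0.09, adjusted p = 0.0470), among 90 genes in all. Without IR 1 it called 1 member in Combo against IR, NEU1 (0.47, SE 0.12, adjusted p = 0.0417), among 956 genes, and without any other library it called 0 there. Correlations between libraries of different groups were taken after the group mean of each gene had been subtracted. Same-numbered libraries then correlated by -0.207 to 0.354 over 18 pairs (median 0.178), 11 of them above 0.1. The 36 pairs with unlike numbers had a median of -0.0793, and 6 of them were above 0.1. Within a group the subtracted values sum to 0, so higher correlations in some pairs bring lower ones in others by construction. Of 12 libraries, 11 correlated best with their own number, which is a hint from the data and not a stated pairing. The block changed no other count of members called.

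Under TPM the members' median against Con was 0.0621 for IR and 0.0246 for Rx. For Combo it was 0.16 against IR and 0.19 against Rx, and for the interaction 0.11. The members with a higher mean in Rx against Con then numbered 23 (23.6% of all genes), and those positive for the interaction 34 (76% of all genes). At a filter of 5 FPKM 4 members were positive for the interaction. That filter removed ASAH1, MCOLN1, ARSB and GALNS, which were among the 8 positive in the main fit. It left the log2 changes of the other members as they were. Leaving out 1 library at a time moved the median of the interaction between -0.13, without Con 1, and -0.036, without Rx 2, and its count of positive members between 6 and 15. It moved the median between 0.14 and 0.18 in IR, 0.08 and 0.14 in Rx and 0.18 and 0.21 in Combo against Con. Of the values for single named members, 4971 moved by less than the spread between libraries, 70 moved further and 2 passed the threshold. Direction was not part of this count, and some of the 4971 changed sign under TPM. Median-of-ratios scaling gave the deposited scaling itself. The depth gave every measured member at least 88 reads a library, and how much of the spread of the lower members is counting error was not tested.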
